A study of Mus musculus with 12 samples.

Results

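The response of siPRMT7 B16.F10 cells to interferon gamma (IFN-γ) was measured gene by gene as the level with IFN-γ minus the level without it. Its members are 6 of the 12 libraries of the series, the 3 siPRMT7 libraries with IFN-γ and the 3 without it, taken by their column names in the deposited table. B16.F10 is a mouse melanoma line of C57BL/6 origin. All 4 groups of the series received a small interfering RNA (siRNA) for 72 h. In the siPRMT7 groups it was directed against Prmt7, an arginine methyltransferase gene. In the siLuc groups it was directed against luciferase, which mouse cells do not have. Mouse IFN-γ was added for the last 24 h to 1 siLuc group and 1 siPRMT7 group, and each group holds 3 libraries. The control for the response described here is thus siPRMT7 cells without IFN-γ, which carry the same knockdown, and the 6 siLuc libraries serve as a second response to set beside it. Knockdown is transient and partial, and the line stands for a single tumour. No IFN-γ dose is given because its unit differs between the labels. The labels call the libraries of a group replicates without saying that they came from separate cultures, so p-values measure the spread between these libraries, which may be technical.

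IFN-γ is a cytokine of T cells and natural killer cells. It binds a receptor of the chains IFNGR1 and IFNGR2, which activates the kinases JAK1 and JAK2, and these phosphorylate transcription factors of the STAT family. STAT dimers bind GAS elements in promoters and induce IRF1 and other factors, which, together with complexes of STAT factors and IRF9 at ISRE elements, drive a broader set of genes for antigen presentation, chemokines and defence of the cell. In melanoma cells the response raises MHC class I and PD-L1 and slows division.

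Values are rlog values, the authors' regularized log2 of library-size-scaled counts, so a difference of 1 is a 2-fold change. The scale draws values of weakly expressed genes toward their mean over the libraries, so their changes are understated. The 6 siPRMT7 libraries held 18.971 to 30.978 M reads, and the siLuc libraries 22.04 to 28.187 M. Prmt7 was at 6.16, 6.32 and 6.41 in siPRMT7 cells without IFN-γ and at 6.36, 6.30 and 6.08 with it, against means of 10.25 in both siLuc groups. Its response to IFN-γ in siPRMT7 cells was -0.05 (standard error, SE, 0.08, adjusted p = 0.639), with overlapping libraries. The 8 melanocyte markers all passed the filter on the mean, with list medians of 13.87 to 14.04 in the siPRMT7 libraries. Of the 10 leukocyte markers 2 passed it (Cd68 and Csf1r), and 6 had means under 1, among them Ptprc, Cd3e, Ncr1, Itgam and Adgre1. Lyz2 and Cd79a lay between, with means of 3.51 and 2.27. The summed linear value of the leukocyte list ran from 461 to 540 without and from 576 to 602 with IFN-γ in siPRMT7 cells, and that of the melanocyte list from 390708 to 398827 and from 287975 to 308361. Among the untreated siPRMT7 libraries, replicate 3 had the top value at 18 of the 20 most induced genes. Its values there exceeded the lowest of the 3 libraries by a median of 0.179% of the treated level. Leaving this library out is among the alternatives given below, and the cause of its higher values was not tested.

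The promoters shown here belong to genes with the largest rises that hold a match to the sequences bound by STAT or by IRF factors, and they were chosen because they hold one. The motifs searched were GAS (TTCNNNGAA, which reads the same on both strands) and ISRE (GAAA, any 2 bases and GAAA, on both strands), in RefSeq windows of 300 bases on GRCm38.p6 from 250 bases before to 50 after the start of transcription. Matches are in capitals, and each sequence runs 5′ to 3′ along the gene.
Tgtp1 (chr11:48992197-48992496, minus strand): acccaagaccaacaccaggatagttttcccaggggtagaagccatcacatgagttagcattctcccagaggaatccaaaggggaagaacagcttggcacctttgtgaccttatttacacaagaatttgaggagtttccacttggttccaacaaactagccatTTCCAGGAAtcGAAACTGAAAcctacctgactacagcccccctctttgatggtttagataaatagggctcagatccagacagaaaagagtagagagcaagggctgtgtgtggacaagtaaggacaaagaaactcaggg
Tgtp2 (chr11:49064163-49064462, minus strand): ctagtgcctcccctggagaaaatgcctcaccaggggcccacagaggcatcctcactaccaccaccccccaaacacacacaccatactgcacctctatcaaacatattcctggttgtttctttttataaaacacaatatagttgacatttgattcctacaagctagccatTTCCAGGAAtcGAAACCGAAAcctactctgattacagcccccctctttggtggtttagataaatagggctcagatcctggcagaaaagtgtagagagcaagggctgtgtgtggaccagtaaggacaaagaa
Igtp (chr11:58199306-58199605, plus strand): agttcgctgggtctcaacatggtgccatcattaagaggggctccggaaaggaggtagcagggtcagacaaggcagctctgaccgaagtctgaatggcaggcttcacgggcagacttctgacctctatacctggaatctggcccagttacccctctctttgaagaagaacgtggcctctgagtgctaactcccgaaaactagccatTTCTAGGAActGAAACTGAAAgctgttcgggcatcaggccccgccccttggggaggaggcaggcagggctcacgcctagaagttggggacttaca
Gbp2 (chr3:142620413-142620712, plus strand): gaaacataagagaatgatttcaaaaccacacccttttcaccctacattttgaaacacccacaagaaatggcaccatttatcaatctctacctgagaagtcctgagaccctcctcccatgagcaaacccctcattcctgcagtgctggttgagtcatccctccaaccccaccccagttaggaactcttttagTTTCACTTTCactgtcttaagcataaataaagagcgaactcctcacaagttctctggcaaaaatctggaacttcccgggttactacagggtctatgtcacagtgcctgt
Psmb8 (chr17:34197945-34198244, plus strand): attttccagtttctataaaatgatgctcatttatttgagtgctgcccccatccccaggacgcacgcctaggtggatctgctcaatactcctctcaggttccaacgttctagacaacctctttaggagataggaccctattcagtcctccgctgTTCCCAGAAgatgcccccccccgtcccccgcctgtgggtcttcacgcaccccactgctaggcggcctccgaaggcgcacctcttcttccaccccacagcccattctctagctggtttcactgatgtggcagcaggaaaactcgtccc
H2-T23 (chr17:36032652-36032951, minus strand): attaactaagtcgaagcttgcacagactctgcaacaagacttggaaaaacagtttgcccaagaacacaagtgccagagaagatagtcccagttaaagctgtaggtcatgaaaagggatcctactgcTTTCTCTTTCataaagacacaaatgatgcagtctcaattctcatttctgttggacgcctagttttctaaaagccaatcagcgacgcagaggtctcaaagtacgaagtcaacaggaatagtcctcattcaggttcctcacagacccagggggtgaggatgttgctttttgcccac
In the 3 immunity-related GTPase genes Tgtp1, Tgtp2 and Igtp, a GAS match is followed directly by an ISRE match, with 2 bases between them. The GAS match began 88, 81 and 45 bases before the start. Tgtp1 and Tgtp2 are near-identical copies, so their promoters are not independent examples. Gbp2 and H2-T23 hold an ISRE match on the other strand, 59 and 124 bases before the start, and Psmb8 a GAS match 97 bases before it. Among all 32851 promoter windows of RefSeq, 8.3% hold a GAS match, 3.44% an ISRE match and 11.3% either. Only 276 of the 420 genes raised most strongly had a window (65.7%), so no comparison of motif content over these genes is given.

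Exposure of siPRMT7 cells to IFN-γ changed most of the genes measured, and a small share of them strongly. Of 14407 genes tested, 4037 (28%) rose and 4119 (28.6%) fell at an adjusted p under 0.05 (limma, Benjamini-Hochberg), 56.6% in all. The median size of these changes was 0.34. Against a null of a 2-fold change, 420 genes rose (2.92%) and 253 fell (1.76%). Rises reached 9.07 and falls -2.72. Of the 420 genes 154 stand in the lists described below and 73 carry predicted or clone names. The filter on the mean over the 12 libraries let in 50 of the 420 whose untreated mean, over siPRMT7 and siLuc libraries together, was under it. These passed it through the groups with IFN-γ and so had to rise in siPRMT7 cells, siLuc cells or both. The 3 libraries with IFN-γ lay wholly above or below the 3 without it at 65.3% of all genes.

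**Figure D1:**
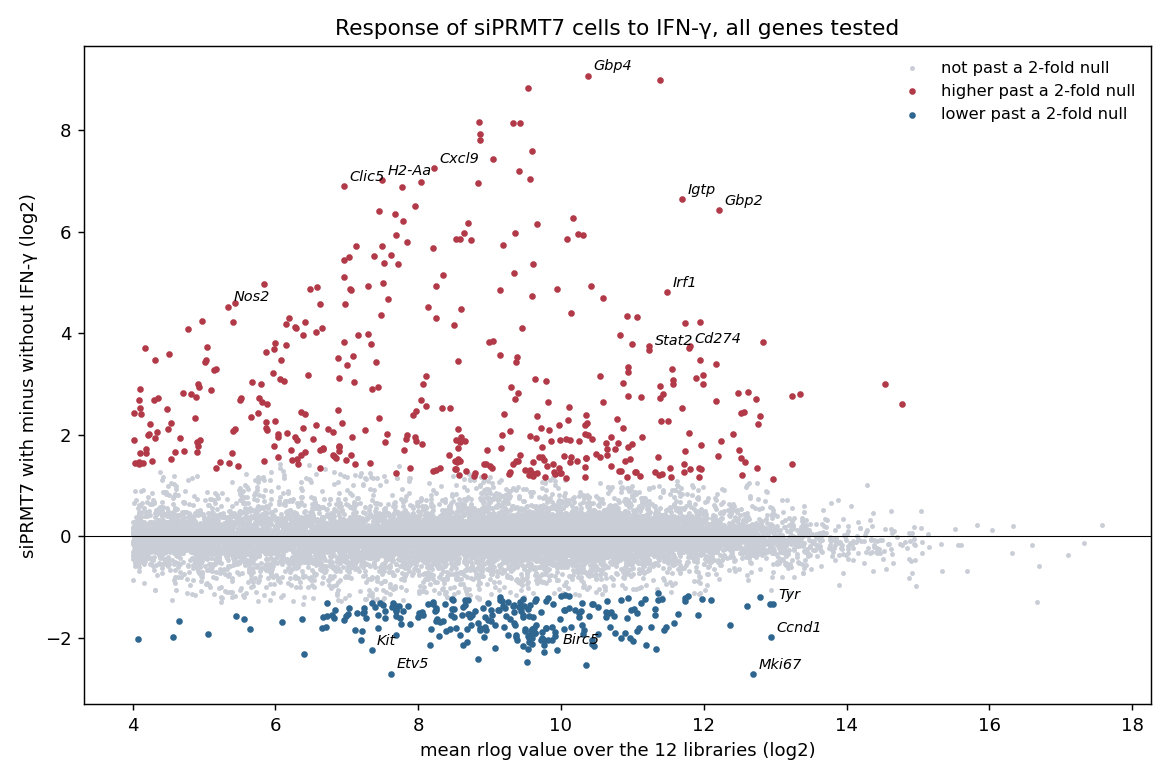
Response of siPRMT7 cells for each of the 14407 genes tested: mean rlog value over the 12 libraries (x, log2) against the difference with minus without IFN-γ (y, log2). Coloured points passed a test against a 2-fold null, 420 higher and 253 lower. Rises reach 9.07 at Gbp4 and falls -2.72 at Mki67.

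The largest rise was that of Gbp4, a guanylate-binding protein that attacks the membranes around intracellular pathogens. It was at 5.39, 5.55 and 6.60 without IFN-γ and at 14.92, 14.96 and 14.88 with it. The groups lay far apart, and the highest untreated value was that of replicate 3 (log2 difference 9.07, SE 0.17, adjusted p = 4.97e-21; 9.45 without that library). After it came Iigp1 at 8.98 and Tgtp1 at 8.14, both immunity-related GTPases, and Gbp10 at 7.80 and Zbp1, a sensor of Z-form nucleic acids, at 7.59. Cxcl9, a chemokine for T cells, rose by 7.26. The class II genes Cd74 (invariant chain) and H2-Aa (α chain) rose by 7.03 and 7.02. Apol10b and Apol6, of the apolipoprotein L family, rose by 6.97 and 6.95. Clic5, a chloride intracellular channel gene, was at 4.67, 4.55 and 4.64 without IFN-γ and at 11.56, 11.50 and 11.51 with it, a rise of 6.90 (SE 0.09, adjusted p = 2.37e-24). Ubd, which encodes the ubiquitin-like modifier FAT10, was at 5.28, 5.23 and 5.37 and then at 12.16, 12.17 and 12.21, a rise of 6.89. For both genes the 6 libraries fell into separate groups with little spread. Igtp rose by 6.64, Gbp9 by 6.50 and Gbp2 by 6.42. These 15 were the largest rises among named genes with a mean of at least 6 and separate groups of libraries, which the choice required.

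**Figure D2:**
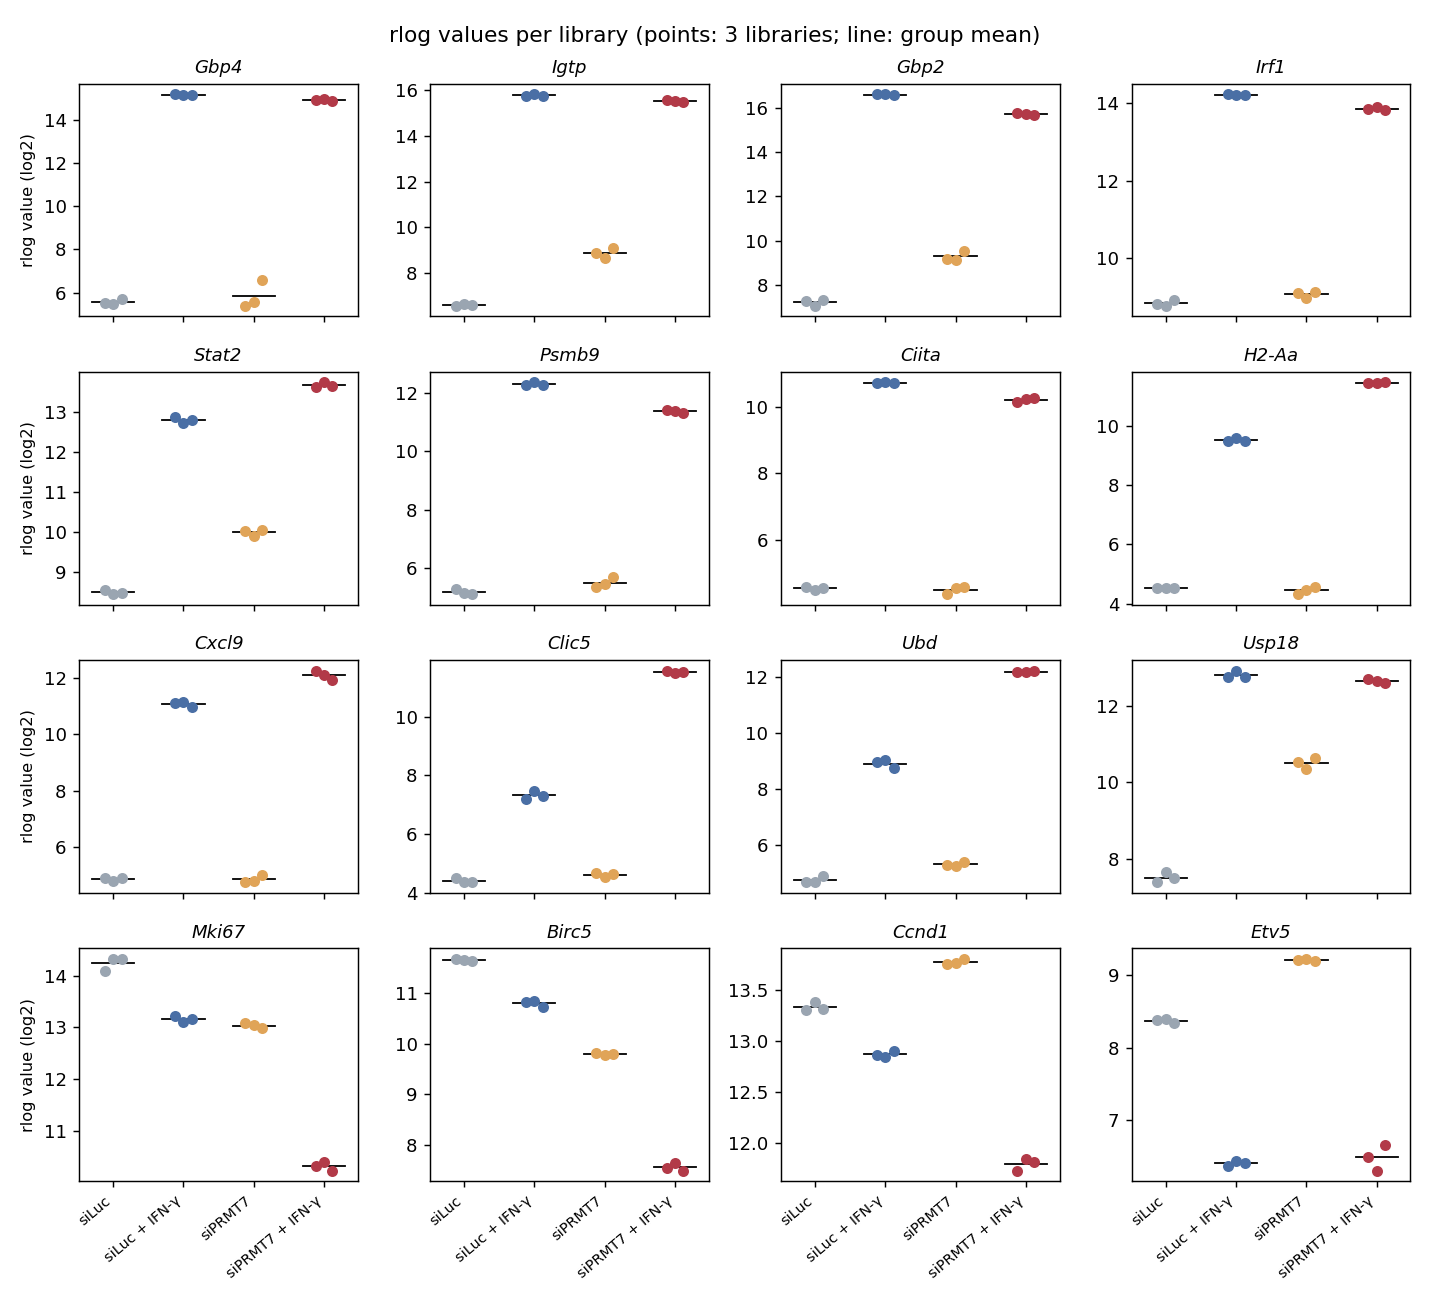
rlog values (y, log2) of 16 genes in each of the 12 libraries, by group (x); points are libraries and lines group means of 3. In siPRMT7 cells, Gbp4 goes from 5.39 to 6.60 without IFN-γ to 14.88 to 14.96 with it, and Mki67 from 12.98 to 13.08 to 10.23 to 10.40. The y axes differ between panels and do not start at 0.

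The signalling genes past the 2-fold null were transcription factors and inhibitors, and no receptor or kinase gene was among them. Of 8 receptor and Janus kinase genes 5 rose and 1 fell, none past the 2-fold null (list median 0.32, against -0.00 over all genes). Jak2 rose by 0.74 and Jak1 by 0.60, the kinases at the IFN-γ receptor, and Ifnar2, a chain of the type I interferon receptor, by 0.79. Tyk2 rose by 0.31 and Ifnar1 fell by 0.31. Jak3 rose by 0.33 (adjusted p = 0.0449), a call lost under several other settings. The receptor chains for IFN-γ itself had no called change. Ifngr1, which binds the ligand, was at 8.96, 9.05 and 8.85 and then at 8.95, 8.81 and 8.80 (-0.10, adjusted p = 0.225), with overlapping groups. Ifngr2, the signalling chain, had a difference of 0.07 (adjusted p = 0.114).

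Among the STAT genes, values are given for 5. Stat2, a partner in the ISRE-binding complex, was at 10.03, 9.90 and 10.05 without IFN-γ and at 13.61, 13.72 and 13.64 with it, in separate groups (3.66, SE 0.05, adjusted p = 4.54e-24). Stat3 rose by 1.81 and Stat6 by 0.36, Stat5a fell by 0.33, and Stat5b had a difference of 0.00 (adjusted p = 0.997). Of 9 IRF genes 5 rose and 0 fell, 3 past the 2-fold null (median 0.90). Irf1, an early target of the pathway, was at 9.08, 8.96 and 9.11 and then at 13.85, 13.91 and 13.83 (4.81, SE 0.04, adjusted p = 6.77e-26). No library of one group came near the other. Irf8, best known from myeloid cells, rose by 4.86 from untreated values of 4.25 to 4.34, close to the filter. Irf7, the amplifier of type I interferon, rose by 3.15, Irf9, the DNA-binding part of the ISRE complex, by 1.05 and Irf2, an antagonist of Irf1, by 0.90. Irf3, Irf4 and Irf5 were at -0.04, -0.23 and -0.08, none called and all with overlapping libraries.

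Of 18 negative regulators of the pathway 9 rose and 5 fell (median 0.09), against 28% and 28.6% of all genes. Past the 2-fold null were 3 of the 9. The 3 are the genes best known as inducible brakes. Socs1, which inhibits JAK1 and JAK2, went from 4.89, 5.04 and 5.09 to 9.10, 8.64 and 8.76, a rise of 3.83 (SE 0.11). Socs3, which restrains signalling through gp130, rose by 2.57. Usp18, a protease for ISG15 that also blocks the type I receptor, was at 10.53, 10.35 and 10.63 and then at 12.70, 12.64 and 12.59, a rise of 2.14 (SE 0.07, adjusted p = 2.16e-17). All 3 genes had separate groups. Socs4 rose by 0.31, and the adaptor Sh2b3 fell by 0.30.

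The GTPases that defend the cytoplasm had the highest medians of the 42 lists. Of 11 guanylate-binding protein genes 10 passed the filter and all 10 rose past the 2-fold null, by 4.32 to 9.07 (median 5.86). Gbp2 was at 9.20, 9.16 and 9.56 without IFN-γ and at 15.76, 15.72 and 15.68 with it (SE 0.07, adjusted p = 9.22e-25). Gbp6 and Gbp11 both rose by 5.86, Gbp7 by 4.34 and Gbp3 by 4.32. All 9 immunity-related GTPase genes rose, 8 past the null, by 0.25 to 8.98 (median 5.94). Igtp, also called Irgm3, was at 8.90, 8.65 and 9.09 and then at 15.55, 15.52 and 15.50 (SE 0.07, adjusted p = 1.29e-25). Tgtp2 rose by 6.26, Irgm2 by 4.22 and Irgm1 by 2.77. In each of these named genes the treated libraries lay above the untreated ones. The list medians in untreated siPRMT7 libraries ran from 5.64 to 6.26 for the guanylate-binding proteins and from 7.31 to 7.93 for the immunity-related GTPases, and replicate 3 was highest in both. Counting may split reads between close copies, so the separate values of Tgtp1 and Tgtp2, of Gbp6 and Gbp10, of Apol9a and Apol9b, of Ifit3 and Ifit3b and of the H2 genes are uncertain. Overlapping annotated genes add to this for Gbp10 and Gbp6, which share 46.3% and 29.0% of their exon bases with the predicted gene Gm43302 on the same strand. Of the genes named further on, H2-T22, H2-T10, Tapbp, Sp140, Gabarapl1, Ctsl, Ccn2 and Bnip3 share 22.3% to 29.4% with a gene on the opposite strand and Wdr77 28.7% with one on the same strand, so their values are uncertain too.

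Genes of antigen presentation rose on both the class I and the class II side. Of 12 classical class I and peptide-loading genes 9 rose, all 9 past the 2-fold null, and 3 fell (median 2.73). Nlrc5, the transactivator of class I genes, was at 7.53, 7.74 and 7.85 without IFN-γ and at 13.63, 13.69 and 13.65 with it, a rise of 5.95 (SE 0.07). The peptide transporter genes Tap2 and Tap1 rose by 4.70 and 3.76, and Tapbpl and Tapbp, which edit and load peptides, by 4.41 and 2.7. Chosen for their roles after the values were seen are the next 6 genes. The heavy chain genes H2-K1 and H2-D1 rose by 3.75 and 2.45 and B2m, the light chain, by 2.60. The 3 that fell were the general chaperone genes Calr, Canx and Pdia3, at -0.45, -0.15 and -0.10. All 5 immunoproteasome genes rose by 3.17 to 5.86, past the null (median 3.97). Psmb9, a catalytic subunit, was at 5.35, 5.47 and 5.70 and then at 11.41, 11.39 and 11.30 (5.86, SE 0.08). Psmb8 and Psmb10, the other inducible subunits, rose by 5.83 and 3.97, and Psme2 and Psme1, of the proteasome activator, by 3.29 and 3.17. Of 6 genes on the list of constitutive catalytic subunits and other proteasome factors 2 rose and 2 fell (median 0.10). Over all genes 28% rose and 28.6% fell. The assembly factor Pomp, which is not a catalytic subunit, was at 0.43 and Psmb7 at -0.11. Of 15 nonclassical class I genes 8 passed the filter and all 8 rose, 5 past the null (median 2.54). H2-T23, which encodes Qa-1 and presents to natural killer receptors, was at 7.32, 7.25 and 7.17 and then at 12.63, 12.61 and 12.59 (5.37, SE 0.05). H2-Q4 rose by 4.13, H2-T22 by 3.23, H2-M3 by 2.94 and H2-T10 by 2.14.

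Of 15 class II genes 11 passed the filter, and of these 9 rose, 7 past the null, and 1 fell (median 3.99). Ciita, the master regulator of class II genes, was at 4.38, 4.55 and 4.58 and then at 10.15, 10.25 and 10.28 (5.72, SE 0.08, adjusted p = 8.5e-24). H2-Aa was at 4.32, 4.46 and 4.57 and then at 11.46, 11.46 and 11.48 (SE 0.08, adjusted p = 5.45e-25). The untreated libraries of both genes lay near the filter, and the treated ones far above. H2-Ab1 rose by 6.41 and H2-Eb1 by 5.94, the β chains of I-A and I-E. Of 21 checkpoint and immune evasion genes 15 passed the filter, with 7 higher, 4 of them past the null, and 5 lower (median 0.04, or -0.01 without siPRMT7 replicate 3). The shares over all genes were 28% higher and 28.6% lower. Cd274, which encodes PD-L1, was at 10.23, 10.14 and 10.24 and then at 13.89, 13.87 and 13.95, a rise of 3.70 (SE 0.04, adjusted p = 1.3e-24). Tnfrsf14, the ligand of BTLA, rose by 3.19, Serpinb9, an inhibitor of granzyme B, by 2.7, Cd47, the signal against phagocytosis, by 1.83 and Lgals9, a galectin, by 0.58.

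Chemokines, factors of NF-κB and defence enzymes also rose. Of 25 chemokine and cytokine genes 17 passed the filter, 3 of them with an untreated mean under it, and 15 of the 17 rose, 11 past the 2-fold null, while 1 fell (median 2.40). The T cell chemokines Cxcl9, Cxcl11 and Cxcl10 rose by 7.26, 4.91 and 2.99. Cxcl9 was at 4.74, 4.78 and 5.01 without IFN-γ and at 12.27, 12.11 and 11.93 with it (SE 0.09, adjusted p = 1.47e-24). Cxcl10 started high, between 12.97 and 13.03, and reached 15.97 to 16.01. Both genes had separate groups with narrow spread. Tnfsf10, which encodes the death ligand TRAIL, rose by 4.03 and Csf1, a macrophage growth factor, by 1.91. Cxcl1, a neutrophil chemokine, was at 7.50, 7.75 and 7.85 and then at 10.75, 10.68 and 10.68 (3.0, SE 0.09, adjusted p = 1.11e-17). Of 16 NF-κB subunits and regulators 15 rose, 3 past the null, and 1 fell (median 0.40). The 3 are feedback inhibitors or regulators of the pathway. Tnfaip3, which encodes A20, was at 6.39, 6.38 and 6.36 and then at 8.30, 8.08 and 7.96 (1.74, SE 0.13, adjusted p = 2.8e-10). Nfkbie, an inhibitor of the IκB family, rose by 1.73 and Nfkbiz, a nuclear co-regulator, by 1.47, with Nfkbia at 0.91 and Relb at 0.80.

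Of 13 metabolic effectors 8 passed the filter, 2 of them with an untreated mean under it, and 5 rose, 4 past the null, and 1 fell (median 2.28). Nos2, the inducible nitric oxide synthase, was at 3.71, 3.75 and 3.57 and then at 8.46, 8.11 and 8.02 (4.52, SE 0.15). Acod1, which makes itaconate, was at 3.26, 3.40 and 3.42 and then at 7.10, 6.92 and 6.84 (3.59, SE 0.10). These untreated values lie where the rlog scale compresses differences most. Apol9b and Apol9a rose by 5.19 and 4.74 and Wars, the tryptophanyl-tRNA synthetase, by 0.97. Of 13 complement genes 9 passed the filter, and 7 rose, 6 past the null, and 1 fell (median 2.74). C4b rose by 6.17, the central component C3 by 4.58, Serping1, the C1 inhibitor, by 4.22, C1ra by 3.06 and C2 by 2.74. C2 shares 42.8% of its exon bases with the predicted gene Gm20547 on the same strand, which leaves its value uncertain.

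Genes usually grouped with type I interferon rose too. Of 41 antiviral genes 38 passed the filter and 36 of these rose, 34 past the 2-fold null, while 1 fell (median 2.16). Ifi44 rose by 5.74, Phf11d by 5.15, Oasl2, of the oligoadenylate synthetase family, by 4.93, Ifit2, which binds foreign RNA, by 3.84 and Ube2l6, the conjugating enzyme for ISG15, by 3.79. Ifit2 was at 11.18, 11.03 and 11.14 without IFN-γ and at 15.03, 14.95 and 14.89 with it (SE 0.05, adjusted p = 1.3e-24), in separate groups. Of 18 tested genes for sensing cytosolic nucleic acids 16 rose, 8 past the null, and 2 fell (median 1.02). After Zbp1 these were led by the DNA-binding p200 family genes Ifi204 and Ifi203 at 5.98 and 4.86. Dhx58, which encodes LGP2, rose by 4.10 and Samhd1, a nucleotide hydrolase, by 2.81. Of 16 genes of the PARP family, which transfers ADP-ribose, and its partners 13 rose, 7 past the null, and 1 fell (median 0.88), led by Parp14 at 4.20, Dtx3l, the partner of PARP9, at 3.07, Parp12 at 2.83, Parp9 at 2.53 and Parp11 at 2.27. Of 14 genes of the TRIM and speckled protein list 13 rose, 11 past the null (median 2.19). Among them Sp110 rose by 4.94, Sp100 by 3.84, Trim30d by 3.58, Sp140 by 3.45 and Trim30a by 2.96.

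Several genes of inflammatory cell death rose. Of 22 genes for death receptors, caspases and necroptosis 18 passed the filter, with 14 higher, 7 past the null, and 2 lower (median 0.97). Casp12 rose by 3.96, Gsdmd, the pore former of pyroptosis, by 3.12, Casp4, which reads cytosolic lipopolysaccharide, by 3.03, Bid by 1.38 and Mlkl, the pore former of necroptosis, by 1.33. Of 10 tested Bcl2 family genes 3 rose and 2 fell, none past the null (median 0.00, or -0.03 after quantile normalization). Over all genes 28% rose and 28.6% fell. Bak1 and Bmf both rose by 0.64, Bbc3 rose by 0.23, and Bax fell by 0.23. Bcl2 fell by 0.12 (adjusted p = 0.0273), a call lost under several other settings.

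The falls were led by genes of the dividing cell. All 32 mitotic genes fell, 31 past the 2-fold null, by 1.21 to 2.72 (median -1.84). Mki67, the gene of the proliferation marker Ki-67, had the largest fall of all. It was at 13.08, 13.05 and 12.98 without IFN-γ and at 10.32, 10.40 and 10.23 with it (-2.72, SE 0.05, adjusted p = 8.17e-21). Birc5, which encodes survivin, was at 9.81, 9.77 and 9.79 and then at 7.54, 7.64 and 7.49 (-2.23, SE 0.05). In both genes every treated library lay below every untreated one. Bub1, of the spindle checkpoint, fell by 2.16, Ccnb1, cyclin B1, fell by 2.04, and Cdk1, the mitotic kinase, fell by 1.78. All 32 genes for DNA replication and nucleotide supply fell, 22 past the null, by 0.15 to 2.29 (median -1.54). Tk1, thymidine kinase, was at 10.01, 10.08 and 9.99 and then at 7.72, 7.73 and 7.76 (-2.29, SE 0.05). Rrm2, a subunit of ribonucleotide reductase, fell by 2.21, and the helicase genes Mcm5, Mcm3 and Mcm2 had differences of -2.0, -1.78 and -1.74. In RNA from whole cultures, fewer dividing cells and less of these RNAs in each cannot be told apart. Other large falls were those of Pclaf, a partner of PCNA, at -2.53, the mitotic kinase gene Pbk at -2.48, Kif15, a spindle motor, at -2.22 and Nuf2, of the kinetochore, at -2.21.

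More of the G1 genes fell than rose. Of 27 genes 23 passed the filter, with 14 lower, 6 past the null, and 6 higher (median -0.28). Over all genes tested 28.6% fell and 28% rose, so the share that rose was near that of all genes. E2f8, E2f2 and E2f1, factors of the E2F family, had differences of -2.42, -2.13 and -1.87. Ccnd1, cyclin D1, was at 13.76, 13.77 and 13.81 and then at 11.72, 11.84 and 11.81 (-1.99, SE 0.04, adjusted p = 4.32e-21), in groups set well apart. It shares 23.4% of its exon bases with LTO1 on the opposite strand, and a strand setting for the counting was not given in the sources used here. Ccne2, cyclin E2, fell by 1.46. Of 21 genes of p53 and its targets 12 fell and 4 rose, 1 past the null (median -0.14): Gadd45b rose by 1.35, while Ccng1 fell by 0.72, Zmat3 fell by 0.66 and Perp fell by 0.64.

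Genes of the melanocyte lineage and of MAP kinase output fell in part. Of 20 melanin and lineage genes 19 passed the filter, with 14 lower, 2 past the 2-fold null, and 5 higher (median -0.39). The shares over all genes were 28.6% lower and 28% higher. Kit, the receptor for stem cell factor, was at 7.80, 7.81 and 7.99 without IFN-γ and at 5.50, 5.62 and 5.73 with it (-2.25, SE 0.09, adjusted p = 2.82e-15). Tyr, the tyrosinase gene, was at 13.50, 13.47 and 13.50 and then at 12.13, 12.10 and 12.20 (-1.34, SE 0.04). Slc45a2, a melanosomal transporter, fell by 1.05, Trpm1 fell by 0.87, and Rab27a, which carries melanosomes, fell by 0.52. Of the 8 melanocyte markers 7 fell and 1 rose, with Dct at -0.58, Mitf, the lineage factor, at -0.39 and Mlana at -0.35. Of 15 MAP kinase output and feedback genes 14 passed the filter, with 9 lower, 4 past the null, and 4 higher (median -0.49). The 4 rises were near the 28% of all genes. Etv5, an ETS factor induced by ERK, was at 9.20, 9.21 and 9.19 and then at 6.50, 6.31 and 6.66 (-2.71, SE 0.08, adjusted p = 1.74e-17), in separate groups. Etv4 fell by 1.82, Spry4 and Dusp4, feedback inhibitors of the pathway, fell by 1.62 and 1.48, and Spred2 fell by 0.81. Cntn1, a cell adhesion gene, was among the 12 largest falls at -2.31.

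Of 25 matrix and integrin genes 24 passed the filter, with 18 lower, 3 past the null, and 4 higher, 2 past it (median -0.30). Itga4 and Itgb3, integrin chains, fell by 1.71 and 1.41, Timp2 fell by 1.13 and Sparc fell by 0.73, while Fn1, fibronectin, rose by 1.42. Of 21 dedifferentiation and mesenchymal genes 12 passed the filter, with 7 higher, 2 past the null, and 1 lower (median 0.35). Axl, a receptor kinase of the dedifferentiated state, rose by 1.17, and Jun, Ccn2 and Snai2 rose by 0.75, 0.73 and 0.48. Col1a2 fell by 0.62, and 3 other fibroblast, endothelial or keratinocyte markers that passed the filter were not called. Cd68 rose by 0.70 and Csf1r was at 0.12 (adjusted p = 0.165), beside the low leukocyte values given above.

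Housekeeping lists moved by less. Of 28 genes for cholesterol and fatty acid synthesis 21 fell and 0 rose, none past the 2-fold null (median -0.27). Scd1 and Scd2, the desaturases, fell by 0.72 and 0.53, Insig1 fell by 0.56, and Fasn, fatty acid synthase, fell by 0.54. Of 13 mitochondrially encoded genes 7 passed the filter, of which 6 fell (median -0.69). The median level of the 7 was 15.14 to 15.94 in the siPRMT7 libraries, while mt-Co2 and mt-Co3 had a mean of -2.21. The cause of this gap was not tested, and it leaves the values of this list uncertain. The 6 falls were led by mt-Cytb at -1.29, mt-Nd2 at -0.98, mt-Nd1 and mt-Nd4 at -0.69 and mt-Nd5 at -0.68. Of 30 cytosolic ribosomal protein genes 23 fell and 1 rose (median -0.18). Rpl14 fell by 0.33, Rpl23 fell by 0.31 and Rps6 fell by 0.26. Of 27 nuclear genes of the respiratory chain 15 fell and 1, Ndufs3, rose by 0.24 (median -0.13), with Ndufa4 at -0.34, Atp5a1 at -0.30, Ndufb8 at -0.26 and Cyc1 at -0.19.

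Of 21 lysosomal and autophagy genes 15 rose and 0 fell (median 0.20), among them the cathepsin genes Ctsl and Ctsb at 0.55 and 0.50, Lamp2 at 0.47, Gabarapl1 at 0.45 and Npc2 at 0.41. Of 21 glycolysis and hypoxia genes 9 rose and 2 fell (median 0.15, or -0.01 after quantile normalization). Pfkp rose by 0.55 and Slc2a1, the glucose transporter GLUT1, by 0.47 (a call lost with robust moderation), while Eno1 fell by 0.47. Bnip3 rose by 1.08 with a wide spread, from 9.43, 9.24 and 8.29 to 10.53, 10.16 and 9.50, and replicate 3 was the lowest in both groups. Of 25 endoplasmic reticulum and stress genes 11 rose, 2 past the null, and 10 fell (median -0.02). The stress-induced factors Atf3, Trib3 and Ddit3 rose by 1.47, 1.18 and 0.94, while the chaperone genes Pdia6 and Hspa5 fell by 0.65 and 0.64. Of 12 heat shock genes tested 4 rose and 4 fell, close to the 28% and 28.6% of all genes (median 0.00, or -0.10 after quantile normalization). Among them were Hspb1 at 1.33, Hspa1b at 0.36 and Hspd1 at -0.32. Of the 9 tested genes of the list of arginine methyltransferases and Wdr77, 3 fell and 1 rose (median -0.06), against 28.6% and 28% of all genes. Prmt3 fell by 0.39, Wdr77, the partner of PRMT5, fell by 0.38, Prmt1 fell by 0.25, and Prmt2 rose by 0.24.

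**Figure D3:**
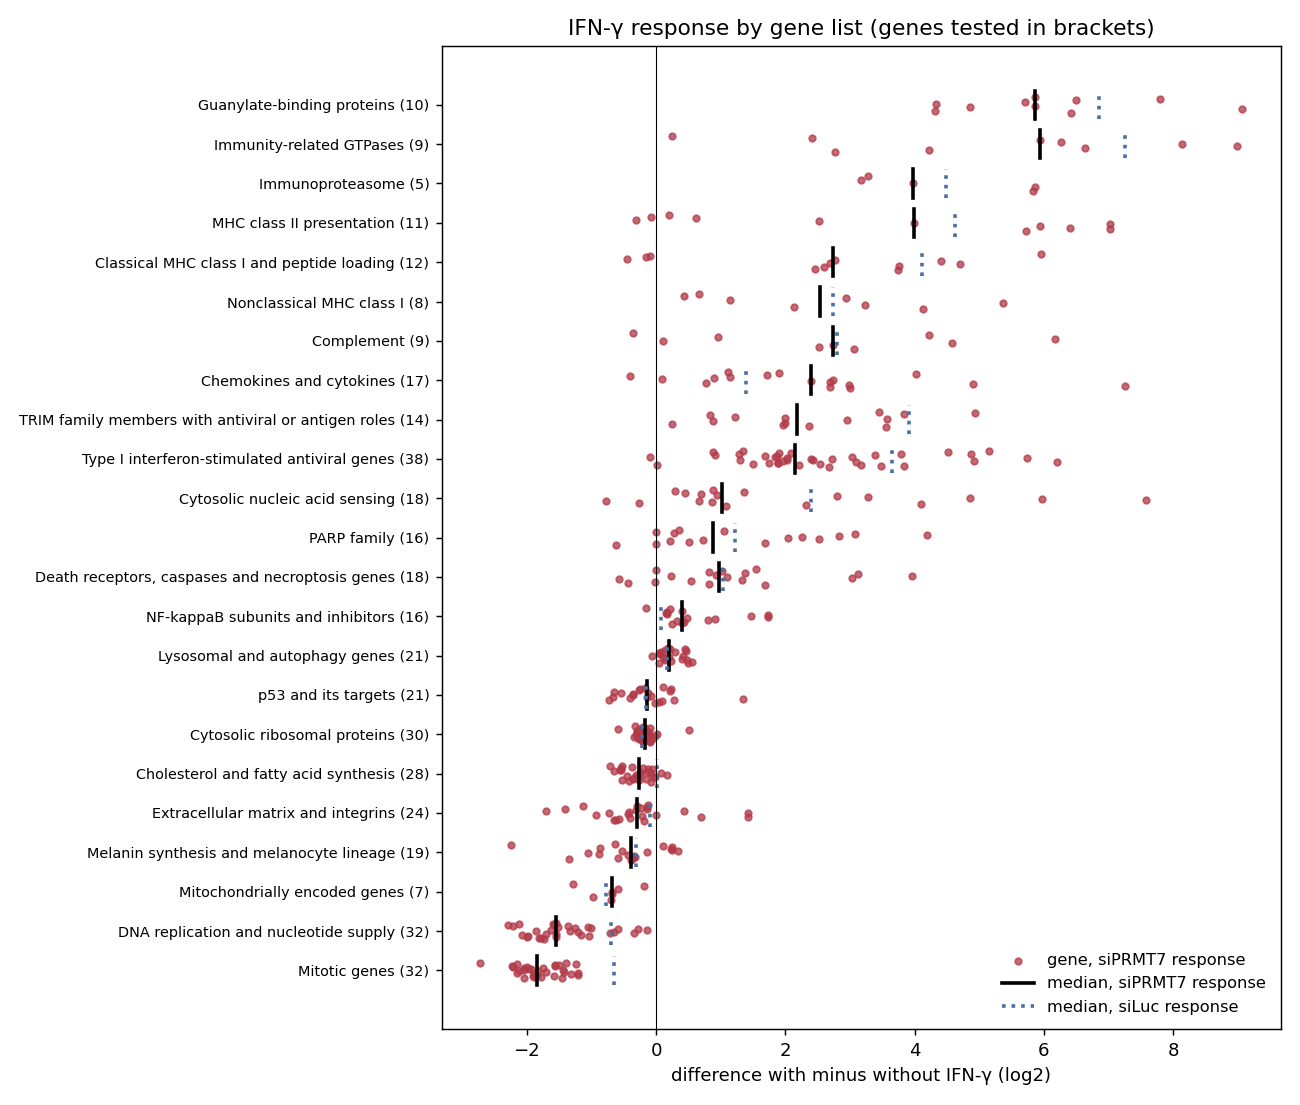
Difference with minus without IFN-γ (x, log2) of the tested genes of 23 lists (rows, number of genes in brackets). Points are genes in siPRMT7 cells, solid marks their median and dotted marks the median in siLuc cells. Medians run from 5.94 for the immunity-related GTPases to -1.84 for the mitotic genes.

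Set beside the response of siLuc cells, that of siPRMT7 cells shared nearly all of its strong rises and falls in direction. In siLuc cells 4029 genes rose (28%) and 4708 fell (32.7%), and 505 rose (3.51%) and 54 fell (0.375%) past the 2-fold null. The responses share no library. Past the null, 352 genes rose in both, which is 83.8% of the 420 and 69.7% of the 505, and 21 fell in both, which is 8.3% of the 253 and 38.9% of the 54. At an adjusted p under 0.05 alone, 414 of the 420 also rose in siLuc cells (98.6%, median response 2.71) and 251 of the 253 also fell there (99.2%, median response -0.73). Across all genes the responses had a Pearson correlation of 0.883 and a Spearman correlation of 0.733, as a description over genes, which are not replicates. The difference of the responses was tested in the same fit. It was higher in siPRMT7 cells for 2034 genes (14.1%) and lower for 2381 (16.5%), and 2852 and 1993 under median centring of the libraries, so that split depends on the scaling. Against a null of a 2-fold difference, 28 were higher (0.194%) and 115 lower (0.798%). This difference and each single response rest on shared libraries, so the values are given side by side.

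**Figure D4:**
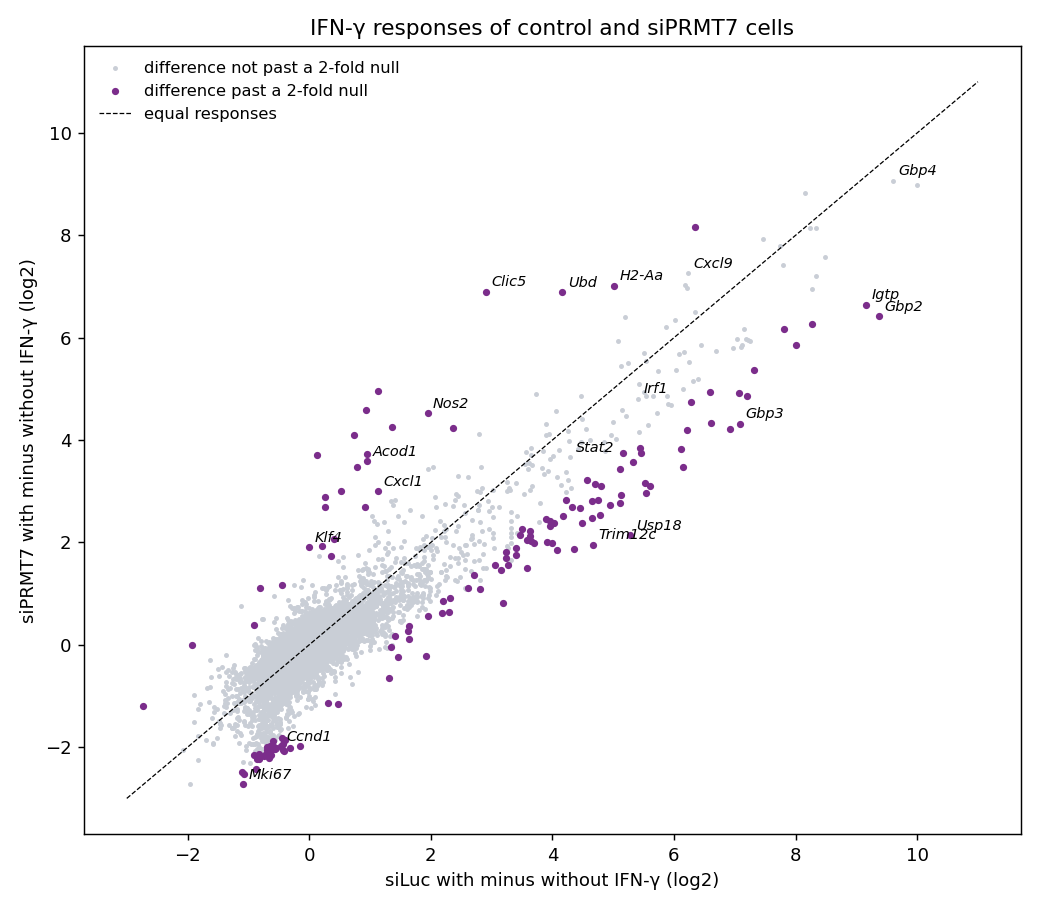
IFN-γ response of siLuc cells (x, log2) against that of siPRMT7 cells (y, log2) for the 14407 genes tested; the dashed line marks equal responses. Coloured points passed a 2-fold null for the difference, 28 above the line and 115 below it. Clic5 (2.90 against 6.90) lies farthest above and Usp18 (5.28 against 2.14) farthest below among the named genes.

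Among genes with a mean of at least 6, the responses that were largest relative to siLuc cells were those of Clic5, Ubd and H2-Aa. Clic5 reached 11.50 to 11.56 in treated siPRMT7 libraries and 7.19 to 7.45 in treated siLuc libraries, from untreated means of 4.62 and 4.41 (difference of responses 4.0, SE 0.12, adjusted p = 5.56e-16). Ubd reached 12.16 to 12.21 against 8.74 to 9.01 (2.72, SE 0.12), and H2-Aa 11.46 to 11.48 against 9.49 to 9.61 (2.01, SE 0.11). The treated libraries of the siPRMT7 and siLuc groups did not overlap in any of the 3 genes. Klf4, a Krüppel-like factor, rose by 1.91 in siPRMT7 cells and was at -0.01 in siLuc cells (1.92, SE 0.14). Trim47 rose by 1.11 in siPRMT7 and fell by 0.81 in siLuc cells (1.91, SE 0.15). Cxcl1 rose by 3.0 and 1.14 (1.86, SE 0.12), and Tnfaip3 rose by 1.74 while it was at 0.17 (adjusted p = 0.285) in siLuc cells (1.57, SE 0.19). Clvs1 had 1.16 and -0.45 (1.61, SE 0.06), and it shares 30.4% of its exon bases with Asph on the opposite strand, which leaves its value uncertain.

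The responses that were smallest relative to siLuc cells were those of Usp18, Gbp2, Gbp3, Trim12c, Irgm2, Ifit3, Trim30a and Igtp, all of them interferon-stimulated genes. Usp18 had untreated means of 10.50 in siPRMT7 and 7.51 in siLuc cells and treated means of 12.64 and 12.80, hence responses of 2.14 and 5.28 (difference -3.14, SE 0.09, adjusted p = 3.77e-16). Gbp2 had untreated means of 9.30 and 7.22 and treated means of 15.72 and 16.59 (6.42 and 9.37, difference -2.95, SE 0.10). Trim30a had 10.80 and 7.73 untreated and 13.76 and 13.27 treated (2.96 and 5.53, difference -2.58, SE 0.06). In each of these genes the backgrounds differed by more without IFN-γ than with it. Gbp3, Trim12c, Irgm2, Ifit3 and Igtp had differences of -2.77, -2.71, -2.69, -2.67 and -2.52. The untreated siPRMT7 libraries enter both the level and the response, so these are not separate observations.

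By list, most antiviral genes responded less in siPRMT7 than in siLuc cells, and most chemokine and NF-κB genes responded more. Over all genes the response was higher in siPRMT7 cells for 14.1% and lower for 16.5%, a split that depends on the scaling. Of the 38 antiviral genes tested the response was lower in 34 and higher in 2 (median response 2.16 against 3.65 in siLuc cells, median difference -1.18). The median level of the list was 9.40 to 9.64 in untreated siPRMT7 libraries and 7.61 to 7.67 in untreated siLuc libraries, and with IFN-γ it was 12.10 to 12.17 and 11.86 to 11.90. In treated cells 17 of the 38 were higher and 15 lower in siPRMT7 than in siLuc cells, against 35.9% higher and 38.7% lower over all genes. Of the 14 TRIM and speckled protein genes 12 responded less (median difference -1.22), of 12 classical class I and loading genes 8 (-1.11), of 18 nucleic acid sensing genes 12 (-0.82), of 16 PARP genes 11 (-0.51) and all 5 of the immunoproteasome (-0.80). For the guanylate-binding proteins it was 6 of 10 (-0.70) and for the immunity-related GTPases 6 of 9 (-1.31). On the other side, 10 of 17 chemokines and cytokines responded more and 2 less (median response 2.40 against 1.38, median difference 0.60), and 12 of 16 NF-κB genes more and 1 less (0.40 against 0.07, median difference 0.40). Of the 17 chemokines and cytokines, 3 had an untreated mean under the filter and passed it through the groups with IFN-γ. Their differences of responses are thus not independent of the filter. Cxcl9 had a difference of 1.03, Cxcl11 of 1.17, Nfkbie of 1.37 and Relb of 0.92, and Nos2 and Acod1, of the metabolic list, had 2.57 and 2.64, though Acod1 passed the filter on the mean only through the treated siPRMT7 libraries. Of 11 class II genes 6 responded more and 3 less (median difference 0.29), with H2-Ab1 at 1.22, Cd74 and H2-Eb1 at 0.86 and Ciita at -0.44. Cd274 had responses of 3.70 and 3.65, and the difference was 0.05 (SE 0.06, adjusted p = 0.594).

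Genes of the dividing cell fell in both backgrounds, and by more in siPRMT7 cells. All 32 mitotic genes had a lower response there (median -1.84 against -0.66, median difference -1.16), as had 28 of 32 replication genes, with 1 higher (-1.54 against -0.70, median difference -0.82). The median of the mitotic list was 9.76 to 9.81 in untreated siPRMT7 libraries, below the 10.75 to 10.79 of siLuc libraries with IFN-γ, and went to 7.90 to 7.92 with IFN-γ. Ccnd1 had responses of -1.99 and -0.47 (difference -1.52, SE 0.05, adjusted p = 5.23e-15). Untreated, it was higher in siPRMT7 than in siLuc libraries, at 13.76 to 13.81 against 13.30 to 13.39, and treated it was lower, at 11.72 to 11.84 against 12.84 to 12.90. Of 28 cholesterol and fatty acid genes 19 had a lower response in siPRMT7 cells and 0 a higher one (median -0.27 against 0.02, median difference -0.33). In siPRMT7 cells 21 of them fell and 0 rose, and in siLuc cells 4 fell and 9 rose. Over all genes the response was lower in 16.5% and higher in 14.1%. Of 24 matrix and integrin genes 15 had a lower response and 2 a higher one (median -0.30 against -0.10). At these medians a lower response was a more negative value, not a smaller change. For the mitochondrially encoded genes the medians were -0.69 and -0.78, with 0 of the 7 differences called in either direction.

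**Figure D5:**
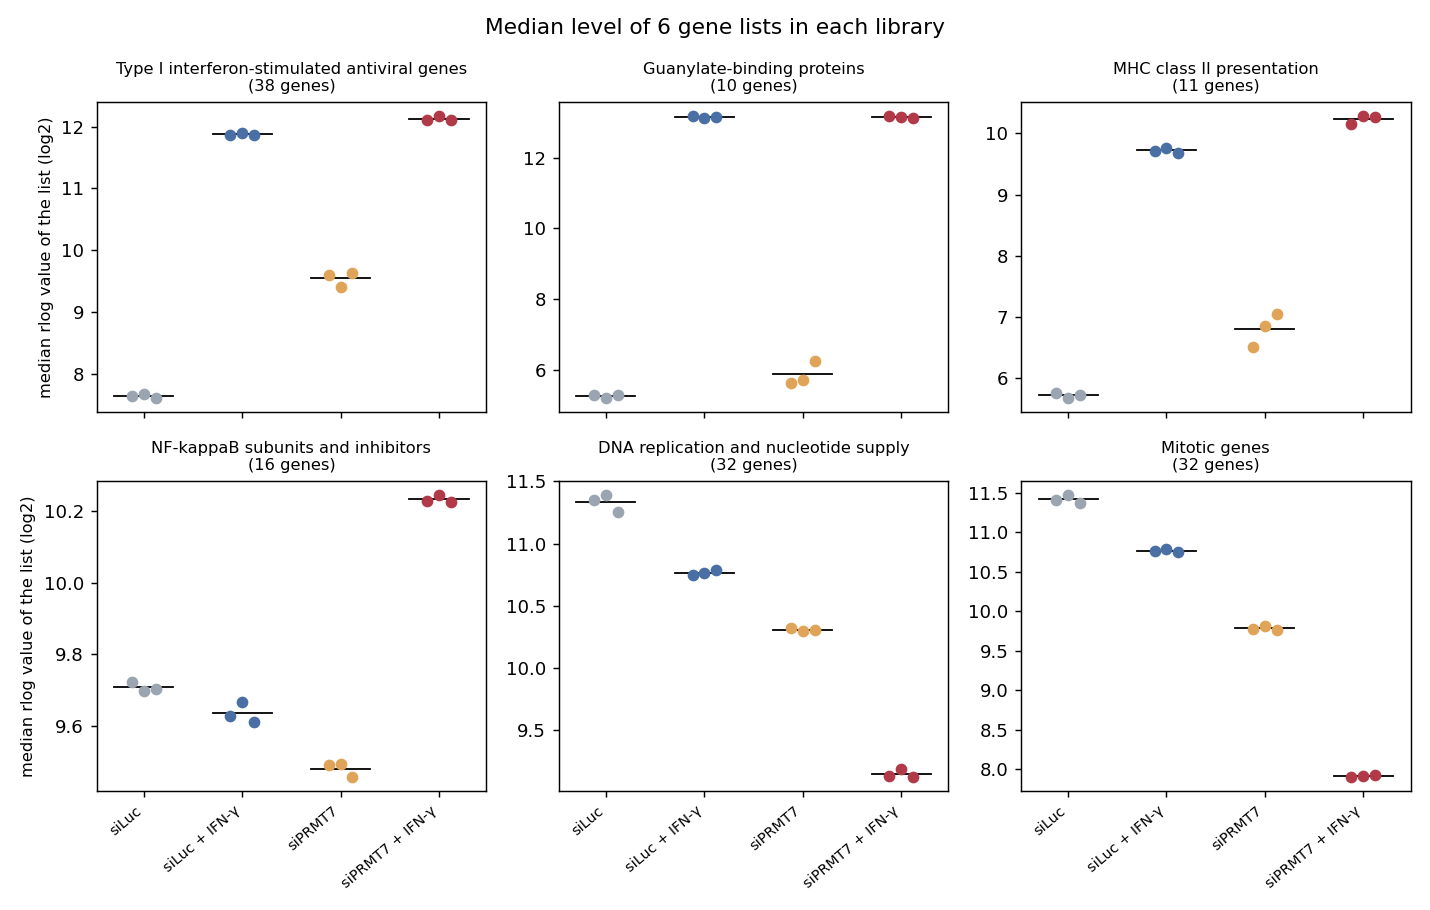
Median rlog value (y, log2) of the tested genes of 6 lists in each library, by group (x); points are libraries and lines the means of 3. The antiviral list goes from 9.40 to 9.64 to 12.10 to 12.17 in siPRMT7 cells, and the mitotic list from 9.76 to 9.81 to 7.90 to 7.92. The y axes differ between panels and do not start at 0.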

How the data were processed

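RNA was sequenced from B16.F10 cells in 12 libraries, 3 in each of 4 groups, from single reads of a poly(A) kit that marks the strand, per the labels' protocols. Per the file headers, the table holds rlog values computed by the authors, in log2 units. They were made by the authors from counts that are not used here, so no count test was run. Trimmomatic 0.39, STAR 2.7.1a, DESeq2 1.26.0 and HOMER 4.11.1 are named, with the build mm10 (GRCm38), per the submitters' processing notes. The fold change columns deposited beside the values were not used. Names matched all 12 columns to samples.

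The table holds 55536 genes, 21981 of them at 0 in every library. Tests took in 14407 genes, those whose rlog values averaged 4 or more across all 12 libraries. For 17 symbols on more than 1 line, only the line of highest mean entered. Group means of all 12 libraries were fitted with limma 3.58.1 in R 4.3.3 (2-sided tests, variances moderated along a trend with the mean). P-values were adjusted by Benjamini-Hochberg over all genes tested, and calls were made at an adjusted p under 0.05. The treat test of limma used a null of a 2-fold change (log2 of 1). The difference of responses was a contrast in the same fit. The fit had 8 residual degrees of freedom and a median residual SD of 0.0751. Untreated levels of siPRMT7 against siLuc cells are given with no test. The script was tested on simulated data.

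The members, the 42 gene lists and the rules were chosen with earlier results of these data known. Named were Prmt7, the 15 largest rises and 12 largest falls among called genes with a mean of at least 6, separate groups and no predicted name, from each list up to 5 called genes of smallest p, all receptor, kinase, STAT and IRF genes, and the 8 highest and 8 lowest differences of responses. Genes outside this rule are marked in the text, and a few that it names are not reported here. Alternatives were other scalings, filters and variance settings, the replicate number as a block, the 6 siPRMT7 libraries alone, and leaving out each library. Promoters are RefSeq windows on GRCm38.p6, the build of the table. No interval from depth is given for rlog values.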

Additional observations from a re-analysis of the deposited data

Results flagged for a closer look

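For 47 named genes the response to IFN-γ in siPRMT7 cells differed from that in siLuc cells past a 2-fold null (limma, contrast of the responses). The values are log2 differences, siPRMT7 response minus siLuc response. Those higher in siPRMT7 cells were Clic5 4.0, Ubd 2.72, Acod1 2.64, Nos2 2.57, H2-Aa 2.01, Klf4 1.92, Trim47 1.91, Cxcl1 1.86, Clvs1 1.61 and Nfkbie 1.37. Those lower were, among the GTPases, Gbp2 -2.95, Gbp3 -2.77, Gbp6 -2.14, Gbp7 -2.28, Igtp -2.52, Irgm1 -2.35, Irgm2 -2.69 and Tgtp2 -2.01, in antigen presentation H2-T22 -1.33, H2-T23 -1.95, Tap1 -1.40 and Tapbp -1.63, and among signalling, antiviral, PARP and TRIM genes Usp18 -3.14, Ifit3 -2.67, Oasl2 -2.14, Apol9a -1.53, Ifi203 -2.34, Trim12c -2.71, Trim30a -2.58, Trim30d -1.76, Sp100 -1.60, Parp9 -1.65, Parp11 -1.24, Parp12 -1.40, Parp14 -2.02 and Irf7 -1.55. Of genes of the dividing cell they were Mki67 -1.64, Birc5 -1.38, Bub1 -1.25, Kif15 -1.40, Nuf2 -1.55, Pbk -1.37, Pclaf -1.46, Rrm2 -1.38, Mcm5 -1.31, E2f8 -1.55 and Ccnd1 -1.52. Each difference rests on 3 libraries in each of 4 groups, and no cause of it was tested. Acod1 passed the filter on the mean only through the treated siPRMT7 libraries.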

How the results depend on the processing

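The counts rerun were those of the siPRMT7 response, with and without the 2-fold null, and of the difference of responses without it. Each stayed within 1.5 times its reported value under every alternative run. Differences past the null, siLuc counts, shared and opposite genes and list counts were not rerun. Of the list medians 82 moved by more than their SD between treated siPRMT7 libraries and 758 did not. Under quantile normalization 22 moved and 20 did not. The difference of responses had more lower than higher genes as deposited, but 2329 higher and 2319 lower under quantile normalization and 2852 and 1993 under median centring. Leaving out each of the 12 libraries in turn gave 3675 to 4206 genes higher and 3743 to 4281 lower, 403 to 424 and 241 to 260 past the 2-fold null, and 1692 to 2207 and 2104 to 2443 for the difference of responses. Quantile normalization gave 3473 higher and 5011 lower, and the median over all genes moved from -0.00 to -0.05. The main fit did not use the replicate number. Deviations of same-numbered libraries with and without IFN-γ correlated at 0.0421, 0.0998 and 0.172 in siPRMT7 cells and at 0.125, 0.224 and 0.0542 in siLuc cells. Between libraries of different number they ran from -0.153 to 0.0651 and from -0.151 to 0.0423. The values were small but mostly higher for the same number, and whether the number marks a pairing was not tested. With the number as a replicate block there were 4087 higher and 4186 lower genes, 420 and 259 past the null, of which 418 and 253 were shared. Values near 0 that no setting called changed sign. Ifngr2 was at -0.0104 under quantile normalization. Stat5b was at -0.0369 under quantile normalization and at -0.00685 under median centring, and from -0.0120 to 0.0200 over the libraries left out. Over the same, Irf3 ran from -0.0708 to 0.00371 and Prmt7 from -0.114 to 0.0349. Calls were lost in 17 of 4513 checks of a named gene under an alternative, for Jak3, Bcl2, Psmb6, Psmb7 and Slc2a1. Depth of the counts is not known per gene, so rlog values of weakly expressed genes carry the least certainty.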

Other observations

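Genes outside the lists also had responses in siPRMT7 cells that differed in size from those in siLuc cells, and the genes given here were chosen after their values were seen. Kcnt2, a potassium channel gene, had a response of 4.59 in siPRMT7 and 0.94 in siLuc cells (difference 3.64, SE 0.20). Col6a3, a collagen VI chain, had 3.73 and 0.95 (2.77, SE 0.14). Prph, an intermediate filament gene of neurons, rose in both, by 3.82 in siPRMT7 and by 6.11 in siLuc cells (-2.29, SE 0.15). The untreated values of Kcnt2 and Col6a3 lie where rlog values are drawn toward the mean. Those of Col6a3, over siPRMT7 and siLuc libraries together, averaged under the filter. Col6a3 thus entered the test through the groups with IFN-γ.

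In all, 380 genes (2.64% of those tested), Trim47 and Clvs1 among them, were called in opposite directions in siPRMT7 and siLuc cells with a called difference, 225 of them higher with IFN-γ in siPRMT7 cells and lower in siLuc cells, and 155 the other way round. Ccdc80, which encodes a matrix protein, went from 9.06, 9.07 and 9.12 to 8.39, 8.44 and 8.48 in siPRMT7 cells and from 8.02, 8.11 and 7.94 to 9.31, 9.40 and 9.31 in siLuc cells. Its groups did not overlap in either background. Plat, tissue plasminogen activator, fell by 0.54 in siPRMT7 cells and rose by 0.81 in siLuc cells, and Npr3, a natriuretic peptide receptor, fell by 0.77 and rose by 0.70.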
